A study of Rattus norvegicus with 36 samples.

Results

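The genes described here encode the proteins of the cytosolic ribosome. A probe set was taken as a member when its single annotated symbol began with Rpl or Rps followed by a digit, or was Rplp0, Rplp1, Rplp2 or Rpsa, with the Rps6k kinases and pseudogenes left out. The rule found 48 genes, on 55 probe sets, among 14217 genes measured by 31042 probe sets. Of these 48, 29 encode large-subunit proteins, 13 small-subunit proteins and 6 are paralogs of a core protein (Rpl26l1, Rpl39l1, Rpl3l, Rpl7l1, Rps27l and Rps4y2). Where more than 1 probe set read a gene, that of median mean intensity was used. The rule used no difference between groups. The members do not cover every ribosomal protein gene, and 36 further probe sets carry several ribosomal protein symbols each and were kept apart.

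The ribosome is built from a small subunit, which reads the messenger RNA, and a large subunit, which joins the amino acids. Its proteins are made in balanced amounts, their mRNAs are among the most abundant of any growing cell, and in vertebrates most of these mRNAs begin with a run of pyrimidines that places their translation under mTOR signalling. A few members have a close paralog with a narrower pattern of expression, of which Rpl3l, which takes the place of Rpl3 in the skeletal and heart muscle of mice, is the best known.

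The study followed wound healing in the vocal fold (VF) of male Fischer 344 rats, 120 days old at the start, on Affymetrix rat expression arrays. The mucosa of both VFs was stripped and collected 3, 14 or 60 days post-injury (PI), with 5 PI arrays at each time, and uninjured control mucosa of the same age (123, 134 and 180 days) was collected on 3, 3 and 2 arrays, by the labels. The methods describe 1 PI array fewer and 1 control array more at 60 days, so 1 array of that time may carry the wrong label, and every difference that uses the 60-day groups rests on the labels as given. RNA of 4 rats was pooled on each mucosal array. Primary VF fibroblasts, grown from explants of 1 rat each and taken at their first passage at 180 days of age, gave 3 arrays of scar fibroblasts treated with siRNA against gp46 (Serpinh1, the collagen chaperone), 3 arrays of scar fibroblasts treated with scramble siRNA, 4 arrays of untransfected scar fibroblasts from VFs 60 days PI, and 3 arrays of naive fibroblasts. The siRNA was given at 50 nM for 1 h and RNA was collected 24 h later, whereas the untransfected scar cultures had no transfection step. Because explant outgrowth selects the cells that attach and divide, the cultures stand for passaged fibroblasts and not for the mucosa as a whole.

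All values are log2 intensities, normalized together across the 36 arrays. The sorted values of the arrays differed by at most 0.03, and values ran from 2.72 to 14.74. Fibroblast markers were high in the mucosa of PI rats at 3 days (summed log2 level 16.64 to 16.84), in control mucosa at that time (16.02 to 16.22) and in the cultures (16.53 to 16.87). Stratified epithelium markers lay between 8.36 and 8.96 in the cultures and between 15.4 and 16.14 in mucosa. Skeletal muscle markers were present in the mucosal samples, at 15.51 to 16.83. In the siRNA experiment the targeted gene Serpinh1 read 12.43, 12.64 and 12.67 in gp46 siRNA cultures and 12.99, 12.96 and 12.93 in scramble cultures, a 1.3-fold difference in the means. A test was limma's moderated test with Benjamini-Hochberg adjustment over all 14217 genes, and a gene was called where its adjusted p was under 0.05. Replicates are arrays, and the p-values measure the spread between these pools or cultures.

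Most ribosomal protein genes formed a narrow band near the top of the scale. Over the 36 arrays, 36 of the 48 members had a mean log2 intensity of 13 or more, between 13.09 and 14.32. Their standard deviations (SD) over all tissues, times and cultures had a median of 0.098, against 0.189 for all 125 genes with a mean in that range and 0.354 for all genes measured. In all, 39 members averaged 10 or more. The other 9 averaged between 4.71 and 9.73 and varied more (median SD 0.435). They were Rpl28, Rpl30, Rpl39 and Rps13 among the core proteins and 5 of the 6 paralogs, Rpl7l1 being the exception. Intensity depends on the probe as well as the transcript, so these bands describe probe sets and do not rank amounts of RNA.

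Sequences around the annotated transcription start were read from the RefSeq promoter table (build GRCr8) for 41 of the 48 members, as the 15 bases before and 15 bases from the start. Those of the paralog pair Rpl3l and Rpl3, whose readings parted most, are shown with 3 members that read low in the same 3 arrays (Rpl22, Rps15 and Rpl21) and 3 that did not (Rplp0, Rpl4 and Rpl5). Capitals mark CTTT, the core of the pyrimidine run typical of these genes.

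Rpl3l, chr10:14258431-14258460, plus strand: gacctctggtgcctggtggggaggtccctt

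Rpl3, chr7:113507976-113508005, minus strand: ccagcgcctgctcgatctctatcggcggcg

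Rpl22, chr5:168117946-168117975, plus strand: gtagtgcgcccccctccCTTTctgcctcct

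Rps15, chr7:10068101-10068130, minus strand: cgctgacaccgcttcCTTTtcccagcagcc

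Rpl21, chr12:13386139-13386168, minus strand: ttcCTTTccgccggggcagccatcttccag

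Rplp0, chr12:46718376-46718405, minus strand: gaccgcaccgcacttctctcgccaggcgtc

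Rpl4, chr8:73566462-73566491, plus strand: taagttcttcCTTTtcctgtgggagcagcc

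Rpl5, chr14:1995211-1995240, minus strand: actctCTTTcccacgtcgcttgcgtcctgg

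CTTT on the strand of the gene was found in 22 of the 41 member windows (53.7%) and in 10.9% of the windows of all 19005 protein-coding promoters. With both strands searched the shares were 53.7% and 20.1%, since no further member held it on the other strand. The longer CTTTC, which overlaps CTTT, was in 15 windows (36.6%) against 3.6% on the gene strand and 6.9% on both strands. Over the whole 300 bases, 250 before and 50 from the start, and on both strands, ATGGCG was in 17 of 41 members (41.5%) and 12.4% of all promoters, CCGGAAG in 10 (24.4%) and 11.2%, and CACGTG in 3 (7.3%) and 7.3%. The Rpl3l and Rpl3 windows held no CTTT. A match to these letters is a description of the sequence and not a measured site.

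Whether injury changed the ribosomal protein genes was asked first at 3 days, when 26.6% of all genes were called. The level of 45 of the 48 members was not called, 1 was called higher and 2 lower. Members called higher made up 1 of 48, where 14.6% of all genes were called higher, and members called lower 2 of 48, where 12% of all genes were. The median log2 difference, PI minus control, was 0.0075 over the members and 0.0093 over all genes. None of the 39 members that averaged 10 or more was called. For 45 members the 95% confidence interval of the difference lay within 1.5-fold in either direction, the exceptions being Rpl3l, Rps27l and Rps4y2. With arrays weighted by their quality, as limma estimates it, 15 members were called, 11 higher and 4 lower, where 58.6% of all genes were. A whole-mucosa array measures a mixture of cells, so fewer cells of a type and less RNA per cell cannot be told apart here.

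**Figure D1:**
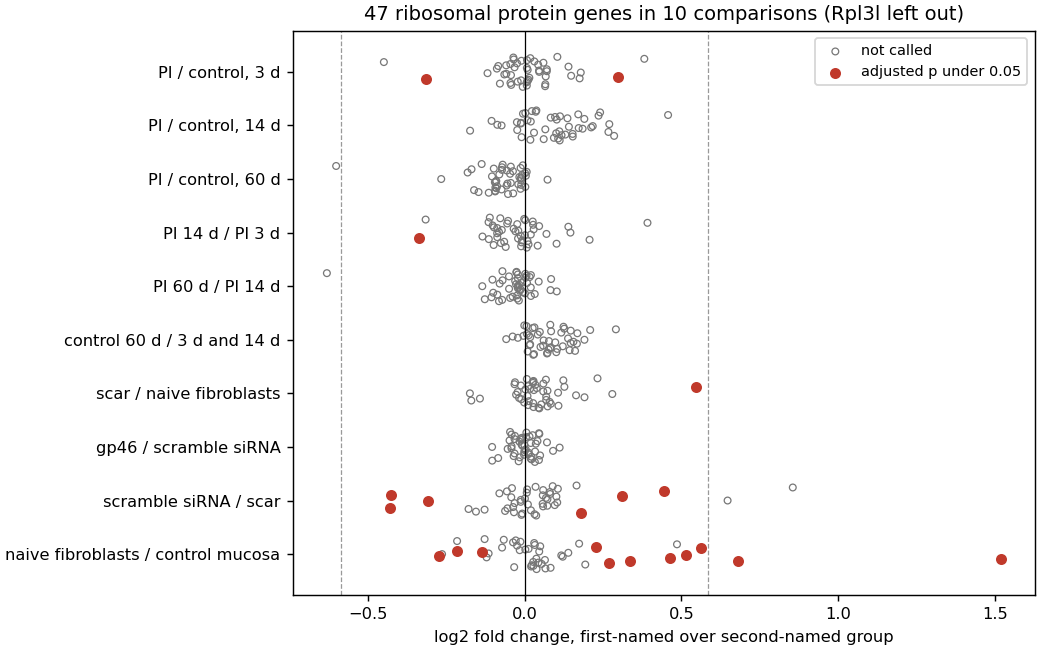
Log2 difference of 47 ribosomal protein genes (points; Rpl3l left out) in 10 comparisons, 1 per line, with the first-named group over the second; red points had a limma adjusted p under 0.05, and dashed lines mark 1.5-fold. Of the red points 2 lie in PI over control at 3 days, 0 at 14 and 60 days, 6 in scramble over scar cultures and 11 in naive fibroblasts over control mucosa.

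Rpl3l, the striated-muscle paralog of Rpl3, had by far the largest difference of any member. It read 9.89, 8.59, 9.86, 8.29 and 8.61 in the 5 PI arrays at 3 days, against 11.84, 10.41 and 11.51 in the 3 control arrays. Every PI array lay below every control array. The means were 9.05 ± 0.76 in PI mucosa and 11.25 ± 0.75 in control mucosa (SD, n = 5 and 3), a log2 difference of -2.21 (SE 0.34, 4.62-fold lower in PI mucosa, limma adjusted p = 6.09e-05).

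At 14 days Rpl3l read 11.76, 11.76, 11.30, 11.98 and 11.22 in PI mucosa and 11.76, 11.89 and 12.04 in control mucosa, and at 60 days 12.01, 11.86, 11.75, 11.19 and 12.10 in PI mucosa and 11.61 and 11.37 in control mucosa. The groups overlapped at both times. The differences were -0.29 (95% interval -1.01 to 0.43) at 14 days and 0.29 (-0.53 to 1.12) at 60 days, neither of them called. The difference of the injury effects was itself tested. The effect at 3 days minus that at 14 days was -1.92 on the log2 scale (SE 0.49, limma adjusted p = 0.0167), and minus that at 60 days it was -2.50 (SE 0.52, limma adjusted p = 0.00293). Without control array 1 or control array 3 at 3 days the first of these had an adjusted p of 0.0704 or 0.0555.

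Between PI arrays of different times, Rpl3l was higher at 14 days than at 3 days by 2.56 (SE 0.30, limma adjusted p = 1.46e-06), and the difference between 60 and 14 days was 0.18 (limma adjusted p = 0.876). In the cultures the gene lay near the bottom of the scale, at 5.02, 4.44 and 5.28 with gp46 siRNA, 4.44, 5.05 and 4.49 with scramble siRNA, 5.25, 4.56, 4.83 and 4.86 in scar fibroblasts, and 4.91, 4.99 and 4.58 in naive fibroblasts. All 13 cultures lay below the lowest mucosal array. The log2 difference of naive fibroblasts from control mucosa was -6.72 (SE 0.29, limma adjusted p = 8.88e-19). The files hold no detection calls, and the macrophage marker Cd163 read 4.36 ± 0.08 in the same naive cultures (SD, n = 3), so Rpl3l may not be above background there and -6.72 is a difference of measured intensities rather than an exact change in RNA.

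Rpl3 itself, which lies next to the peptidyl transferase centre of the large subunit, did not share this pattern. It read 14.08, 14.19, 14.09, 14.13 and 14.22 in PI mucosa at 3 days and 14.06, 14.08 and 14.08 in control mucosa. The ranges touch, and the difference was 0.07 (95% interval -0.05 to 0.18, limma adjusted p = 0.411). At 14 days it was -0.02 and at 60 days -0.05, neither called. Naive fibroblasts and control mucosa differed by 0.04 on this probe set (limma adjusted p = 0.48), while the second Rpl3 probe set differed by 1.13 in the same direction (limma adjusted p = 1.91e-11 over all probe sets).

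**Figure D2:**
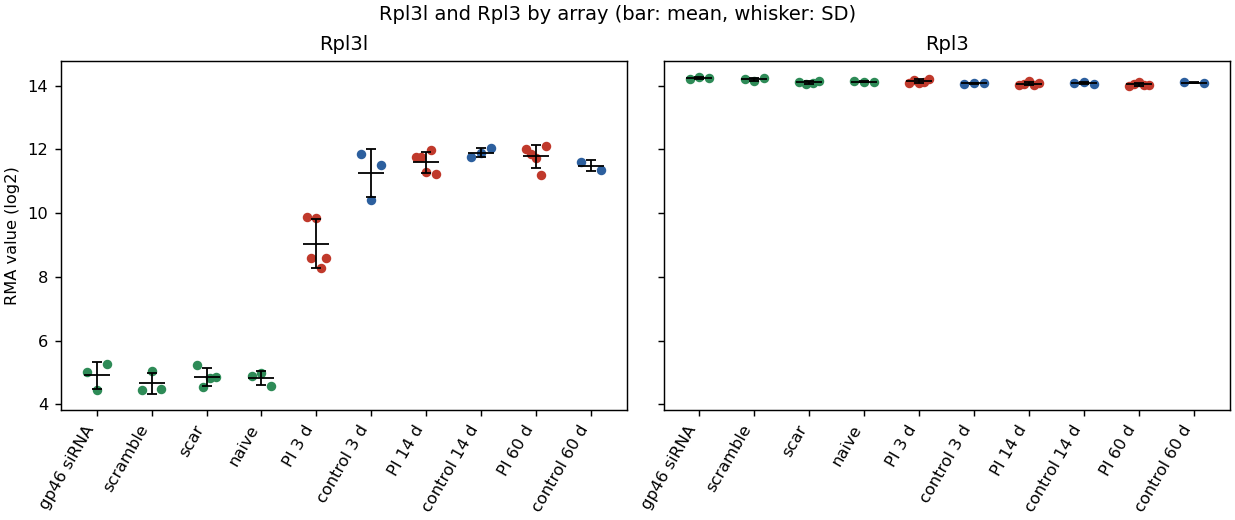
Log2 intensity of Rpl3l and Rpl3 in each of the 36 arrays (points), with cultures in green, PI mucosa in red and control mucosa in blue, and the mean and SD of each group as bars. Rpl3l lay at 8.29 to 9.89 in PI mucosa at 3 days, below every other mucosal array, and under 5.3 in all cultures, while Rpl3 stayed near 14 in every group.

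Skeletal muscle genes moved beside Rpl3l. At 3 days 6 of 9 muscle markers were called lower and none higher, with a median of -0.66, against 0.0093 over all genes. Myh2, a fast myosin heavy chain, was at -1.46 (limma adjusted p = 0.00078), Mb, which encodes myoglobin, at -1.23 (1.78e-05) and Myh4, another fast myosin, at -1.04 (0.0172), whereas Acta1, the skeletal actin, at -0.01 and Actn3, the fast-fibre actinin, at 1.09 (limma adjusted p = 0.248) were not called. The summed level of the list ran from 15.51 to 16.15 on the PI arrays and from 16.04 to 16.62 on the control arrays at 3 days, and the 2 ranges overlapped. At 14 days against 3 days in PI mucosa 8 of the 9 were called higher, and in naive fibroblasts against control mucosa all 9 were called lower. The part of muscle content in the Rpl3l difference was not tested.

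The remaining calls at 3 days were small and on dim probe sets, those with a mean under 10. Rpl26l1, a paralog of Rpl26, read 6.86, 6.85, 6.74, 6.76 and 6.68 in PI mucosa and 7.02, 7.22 and 7.03 in control mucosa. The groups did not overlap, and the difference was -0.31 (SE 0.09, limma adjusted p = 0.0159). Without control array 2 its adjusted p was 0.0915.

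Rpl28, a large-subunit protein, read 5.34, 5.57, 5.63, 5.72 and 5.44 in PI mucosa and 5.39, 5.30 and 5.04 in control mucosa. The lowest PI array fell among the control arrays. The files hold no detection calls, and readings this low may not be above background. Rpl28 was higher by 0.30 (SE 0.11, limma adjusted p = 0.0437), and it was not called without PI array 2, 3 or 4 (adjusted p = 0.0738, 0.0873 and 0.107) or without control array 2 or 3 (0.0597 and 0.274). Rps27l, a paralog of Rps27 whose human counterpart is a p53 target, read 9.07, 9.22, 9.31, 9.21 and 8.91 in PI mucosa and 9.68, 9.53 and 9.56 in control mucosa. Every PI array was below every control array, but the difference of -0.45 (95% interval -1.04 to 0.14) was not called (limma adjusted p = 0.273).

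Members chosen for their roles showed no call at 3 days. Rplp0, the base of the stalk that recruits elongation factors, was at 0.14 (limma adjusted p = 0.0906), with 13.94 ± 0.03 in PI mucosa and 13.80 ± 0.05 in control mucosa (SD, n = 5 and 3). Rpl5 and Rpl11, which enter the large subunit with 5S rRNA and bind Mdm2 when free, were at 0.01 and -0.0057. Rps3, at the mRNA entry site, was at 0.0079, Rps6, the substrate of the S6 kinases, at 0.02, Rpsa at 0.10 and Rpl13a, which in human cells also serves in a complex that silences inflammatory mRNAs, at 0.0073. Rpl22 was at 0.0071, Rpl39 at 0.18, Rpl7 at -0.09 and its paralog Rpl7l1 at -0.03. For each of these genes the 95% interval lay within 1.5-fold.

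At 14 days 3.03% of all genes were called, and 0 of 48 members were (limma; 1 member at an unadjusted p under 0.05). The median difference over the members was 0.10, with 37 of 48 above 0, against -0.0009 over all genes. At 60 days 0.0563% of all genes and 0 members were called (limma; 1 member at an unadjusted p under 0.05), and the members' median was -0.06, with 42 of 48 below 0. The interval of the difference stayed within 1.5-fold for 43 members at each of these times. The 2 medians have opposite signs, and both rest on single arrays, as the next values show.

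The arrays differed from each other in these genes more than the groups did. Each member of each array was set against the mean of the other arrays of its group, and the median over the 48 members was taken. PI array 5 at 3 days stood at -0.28 with 43 members below the others, control array 3 at 14 days at -0.19 with 38 below, and PI array 4 at 60 days at -0.26 with 47 below. The other 33 arrays, cultures included, lay between -0.04 and 0.13. Over all genes the same measure was -0.02, -0.01 and -0.08 in the 3 arrays. Joint normalization holds this all-gene value near 0, so it cannot show whether the members stood apart from the array as a whole.

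**Figure D3:**
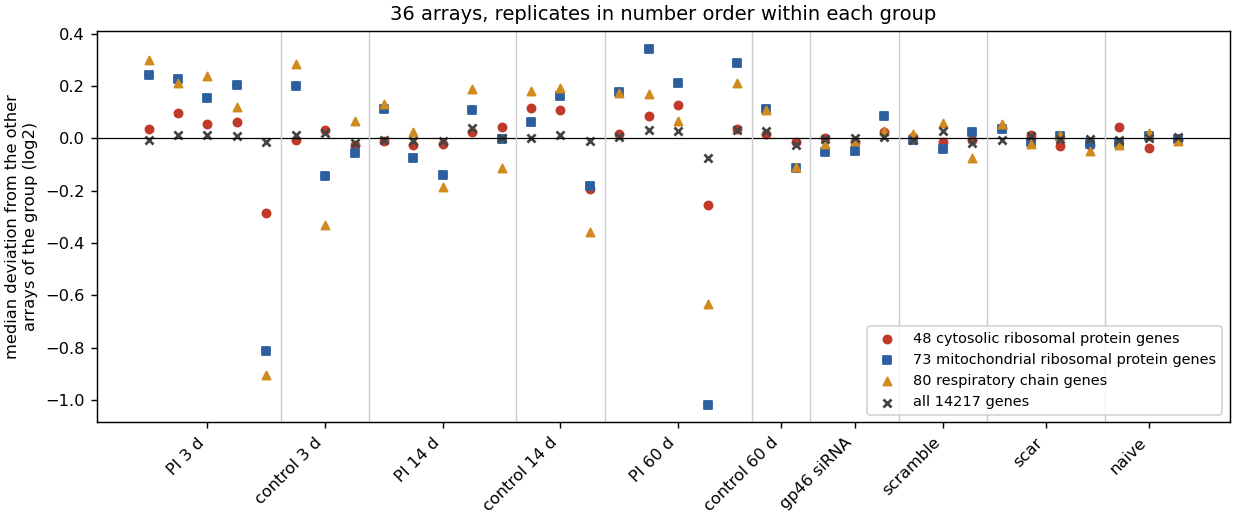
Median deviation (log2) of each array from the other arrays of its group, for the 48 ribosomal protein genes, the mitochondrial ribosomal proteins, the respiratory chain and all genes. For the ribosomal protein genes PI array 5 at 3 days, control array 3 at 14 days and PI array 4 at 60 days lie at -0.28, -0.19 and -0.26, and every other array lies between -0.04 and 0.13.

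Of the 48 members, 36 (75.0%) were below the other arrays of the group in all 3 of these arrays, as were 28.0% of all genes. Another 8 were below in 2 and 4 in 1. Of the members 6 were lower by at least 0.4 in each, namely Rpl21, Rpl22, Rpl23a, Rpl27, Rps15 and Rps4y2. Rpl22, a large-subunit protein that also binds small viral and cellular RNAs, read 13.47, 13.54, 13.46, 13.57 and 12.73 in PI arrays 1 to 5 at 3 days and 13.26, 13.40 and 13.39 in the control arrays. Array 5 alone fell below the controls.

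At 14 days Rpl22 read 13.32, 13.29, 13.13, 13.35 and 13.30 in PI mucosa and 13.33, 13.26 and 12.39 in control mucosa, and at 60 days PI arrays 1 to 5 read 13.29, 13.33, 13.34, 12.86 and 13.37. The third control array at 14 days and the fourth PI array at 60 days were again the low ones. Rps15, a small-subunit protein, deviated by -0.68, -0.62 and -0.60 in the 3 arrays, in the order given above, and Rpl21, a large-subunit protein, by -0.75, -0.44 and -0.59. The widest single deviations were those of Rps28, a small-subunit protein, in the control array (-1.49, against -0.69 and -0.13 in the PI arrays at 3 and 60 days) and of Rps27l in the PI array at 60 days (-1.65, against -0.30 in the PI array at 3 days and 0.15 in the control array). By contrast Rplp0 deviated by 0.06, 0.16 and -0.12, Rpl4, a large-subunit protein that lines the exit tunnel, by 0.21, 0.22 and -0.11, and Rpl5, which carries 5S rRNA into the large subunit, by 0.01, 0.10 and -0.10.

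**Figure D4:**
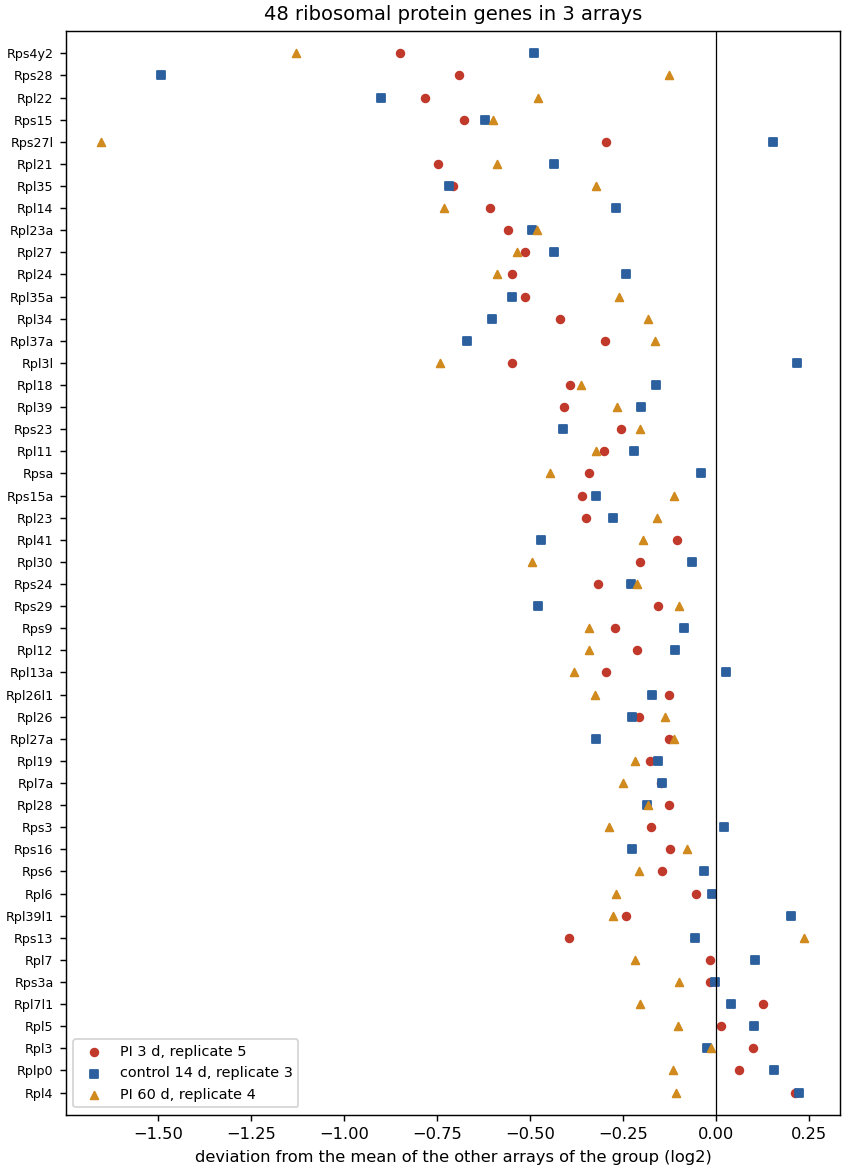
Deviation (log2) of each of the 48 ribosomal protein genes from the mean of the other arrays of the group, in PI array 5 at 3 days, control array 3 at 14 days and PI array 4 at 60 days. Most members lie below 0 in all 3 arrays, with Rpl22, Rps15, Rpl21, Rpl23a, Rpl27 and Rps4y2 lower by at least 0.4 in each, and Rplp0, Rpl4 and Rpl5 between -0.12 and 0.22.

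Across the 48 members the deviations of PI array 5 at 3 days and control array 3 at 14 days had a Pearson correlation of 0.64, those of PI array 4 at 60 days and PI array 5 at 3 days 0.48, and those of PI array 4 at 60 days and control array 3 at 14 days -0.03. These are descriptions over genes of the same arrays, which are not independent replicates. Members with CTTT in the window around the start (22) had medians of -0.31, -0.21 and -0.21 in the 3 arrays. Those without (19) had -0.24, -0.17 and -0.27, so no common order was seen. In some windows CTTT lies before the start, so this split does not sort members by how their mRNA begins.

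Several other gene lists were low in the same arrays. Mitochondrial ribosomal proteins had medians of -0.81, -0.18 and -1.02, the respiratory chain and ATP synthase -0.91, -0.36 and -0.63, and the proteasome core -0.55, -0.11 and -1.01. Ribosome assembly factors stood at -0.11, -0.10 and -0.17 and cytosolic tRNA synthetases at 0.16, 0.06 and 0.09. Of the probes that report RNA integrity, the 3' minus 5' difference of beta-actin was 0.62, 0.80 and 0.97 in the 3 arrays and 0.80 to 1.45 in the other 20 mucosal arrays, that of GAPDH 0.05, 0.05 and 0.12 against 0.01 to 0.25, and that of hexokinase 1.26, 1.49 and 1.22 against 1.12 to 1.79. The part of RNA quality or of handling in these shifts was not tested.

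Because these arrays were singled out for low values of the members themselves, what follows without them is a description. Without the 3 arrays the members' median difference was 0.05 at 3 days, 0.0080 at 14 days (28 above 0) and -0.0006 at 60 days (25 below 0). The offsets of opposite sign at 14 and 60 days were thus not present in the other arrays. At 3 days 9 members were called, 7 higher and 2 lower, where 38.5% of all genes were called. Higher were Rps4y2 (0.55), Rpl28 (0.32), Rpl27 (0.28), Rpl39 (0.26), Rpsa (0.17), Rpl22 (0.16) and Rplp0 (0.13), and lower were Rpl3l (-2.10) and Rpl26l1 (-0.29). Rpsa encodes a small-subunit protein that is also known as a laminin receptor.

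Within PI mucosa 34.2% of all genes differed between 14 and 3 days (15.8% higher and 18.4% lower at 14 days), and 2 of 48 members did, 1 in each direction. Rpl3l was higher (2.56, above) and Rpl28 was lower, with a difference of -0.34 (SE 0.09, limma adjusted p = 0.00764), with 5.14, 4.99, 5.30, 5.43 and 5.17 at 14 days against the 3-day values given above. The lowest 3-day array fell within the 14-day range. At this level Rpl28 may not be above background. The members' median was -0.02, the same as over all genes. Without the 3 low arrays, of which 1 is in this comparison, 14 members were called, 2 higher and 12 lower, against 46.8% of all genes, and the median was -0.08. Among the 12 were Rps4y2 (-0.49), Rpl28 (-0.36), Rps28 (-0.25), Rpl22 (-0.23) and Rpl27 (-0.22).

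No member was called between 60 and 14 days in PI mucosa, where 2.1% of all genes were (limma; 1 member at an unadjusted p under 0.05), nor between control mucosa at 60 days and the earlier controls, where 0.12% were (limma; 0 members at an unadjusted p under 0.05). The injury effect differed between 3 and 14 days for 1 member, against 8.01% of all genes, and between 3 and 60 days for 1, against 13.5%. On the chosen probe sets both calls were Rpl3l, and both were lower, as were 2.54% and 4.78% of all genes.

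Genes that build or use the ribosome were read from lists of related pathways. The list of 68 ribosome assembly factors had 19 genes called higher and 1 lower at 3 days, with a median of 0.14. The share called, 29.4%, was close to the 26.6% of all genes called in either direction, while 14.6% of all genes were called higher. The largest rises were Gnl2, a nucleolar GTPase of large-subunit assembly (0.68, limma adjusted p = 1.46e-05), Riok2, a kinase of small-subunit maturation (0.62), and Mphosph10, a component of the U3 particle that processes the small-subunit rRNA precursor (0.49). Of 25 initiation factors 6 were called higher and none lower, with Eif2s1, which encodes the alpha subunit of eIF2, at 0.42, and of 19 cytosolic tRNA synthetases 5 and none, with Tars1, for threonine, at 0.45. These shares, 24% and 26.3%, were near the 26.6% of all genes called in either direction. All of these calls were higher, however, where 14.6% of all genes were called higher. Of 14 RNA polymerase I genes 2 were called lower (Polr1a at -0.36 and Polr1b at -0.30), a share of 14.3% where 12% of all genes were lower. Of 7 genes read in the elongation factor list, Naca among them, 0 were called by limma (0 at an unadjusted p under 0.05). None of the 7 encodes a poly(A)-binding protein. Of 9 genes of the MYC and p53 list 3 were called higher and 1 lower, with a median of 0.16. Cdkn1a, the p53 target that encodes p21, was at 1.03, Mdm2, the ligase that free Rpl5 and Rpl11 bind, at 0.60 and Mycn, a MYC family factor, at 0.31, whereas Mdm4, the partner of Mdm2 that also restrains p53, was at -0.72. In the mTOR and S6 kinase list, whose kinases phosphorylate Rps6, 1 of 18 was called higher (Rps6ka3 at 0.32) and 5 lower (33.3% in all). The 5 were Deptor (-0.71), Eif4ebp2 (-0.64), Tsc1 (-0.49), Rps6ka2 (-0.49) and Larp1 (-0.27). Mtor (0.16), Rptor (-0.09), Rheb (-0.01) and Rps6kb1 (0.02) were not called. The list mixes genes of different roles, so the count gives no direction for the pathway. Whether the lists differ from the members was not tested.

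Markers of dividing cells were higher at 3 days, with 6 of 6 called higher and a summed level of 12.49 to 12.7 in PI mucosa against 10.23 to 10.97 in control mucosa. All 3 neutrophil markers were called higher as well. Mitochondrial ribosomal proteins, which share a function with the members in another compartment, had 0 of 73 called by limma at 3 days (3 at an unadjusted p under 0.05, median -0.07). By 14 days 0 of the 68 assembly factors were called by limma (0 at an unadjusted p under 0.05). Between 14 and 3 days in PI mucosa 1 of them was higher and 24 lower, 36.8% in all. Of all genes 34.2% were called there, 15.8% higher and 18.4% lower.

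In cultured scar fibroblasts against naive fibroblasts 5.47% of all genes were called and 2.63% were called higher, while 1 of 48 members was called, as higher. Rps13, a small-subunit protein read by a dim probe set, was at 7.05, 7.44, 7.28 and 7.13 in scar fibroblasts and 6.76, 6.66 and 6.63 in naive fibroblasts, with no overlap. It was higher by 0.55 (SE 0.11, limma adjusted p = 0.0203). It was not called without naive culture 1, 2 or 3 (adjusted p = 0.0552, 0.0852 and 0.0718) or scar culture 3 (0.0578), and its adjusted p was 0.064 with only the arrays of the groups compared. The members' median was 0.03, against 0.02 over all genes. For 45 members the interval lay within 1.5-fold. Markers of dividing cells had a summed level of 9.96 to 11.38 in scar cultures and 8.79 to 9.25 in naive cultures, without overlap and with 6 of 6 called higher, and muscle markers one of 11.78 to 14.18 in scar cultures and 11.34 to 12.76 in naive cultures, which overlapped. Their part in the Rps13 difference was not tested.

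No difference between gp46 siRNA and scramble siRNA cultures was called for any member. The same held for all 14217 genes (limma; 0 members and 299 genes at an unadjusted p under 0.05), so that 0% of genes were called. The members' median difference was 0.0002. In the fit without pairing, the 95% interval of 45 members lay within 1.5-fold, the others being Rpl39l1, Rpl3l and Rps4y2. With the replicate number as a block, which treats these cultures as paired, the SE was 0.09 for Rpl39l1, 0.27 for Rpl3l and 0.08 for Rps4y2. Rps6 was at 0.05 and Rplp0 at -0.02.

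Scramble siRNA cultures differed from untransfected scar cultures in 30% of all genes and in 6 of 48 members, 3 higher and 3 lower, where 16.5% of all genes were higher and 13.6% lower. Rps27l was at 10.52, 10.50 and 10.50 in scramble cultures and 9.87, 10.24, 10.11 and 10.04 in scar cultures, higher by 0.44 (SE 0.09, limma adjusted p = 0.00254). Rpl7l1, the paralog of Rpl7, was at 11.19, 11.09 and 11.33 against 10.81, 10.90, 10.91 and 10.94, higher by 0.31 (adjusted p = 0.0156). In both genes every scramble culture lay above every scar culture.

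Rpl18, a large-subunit protein, was at 13.98, 13.94 and 14.01 in scramble cultures and 13.85, 13.82, 13.79 and 13.74 in scar cultures, higher by 0.18 (limma adjusted p = 0.0308). Rpl26l1 was at 7.19, 7.06 and 7.12 against 7.83, 7.54, 7.28 and 7.55, a difference of -0.43 (limma adjusted p = 0.0307). Both genes separated the groups without overlap.

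Rpl39, a small protein that lines the exit tunnel, was at 7.40, 7.38 and 7.25 in scramble cultures and 7.77, 7.74, 7.61 and 7.49 in scar cultures, a difference of -0.31 (limma adjusted p = 0.0294). Rps13 was at 6.56, 6.80 and 7.04 in scramble cultures, all below the scar values given above, a difference of -0.43 (limma adjusted p = 0.015). With the replicate number as a block none of the 6 was called (limma adjusted p 0.0681 to 0.279). The labels give these groups no pairing. Deviations from the group means in equal numbers had correlations of -0.08, -0.134 and 0.048, so the block is no pairing here. With single cultures left out Rps27l was called in 7 of 7 fits (highest adjusted p 0.0117), Rpl7l1 and Rps13 in 6 (not without scramble culture 3, 0.0731, and not without scramble culture 1, 0.0723), Rpl18 in 3 (lost without scar culture 3 or 4 or scramble culture 1 or 3, up to 0.0958), Rpl39 in 2 (lost without scar culture 1 or 2 or any scramble culture, up to 0.109) and Rpl26l1 in 1 (kept only without scar culture 3, otherwise up to 0.0846). The 2 sets of cultures differ in transfection as a whole, and dividing-cell markers were higher in scramble cultures (summed level 13.38 to 13.63) than in scar cultures (9.96 to 11.38). Muscle markers were at a summed level of 10.93 to 11.24 in scramble cultures and 11.78 to 14.18 in scar cultures, again without overlap, with 2 of 9 called lower. Their part in these differences was not tested.

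Besides Rpl3, whose second probe set is given above, second probe sets of 3 members gave calls that the chosen one did not. In scramble over scar cultures the second probe set of Rpl14 was at 0.56 (limma adjusted p = 0.00314 over all probe sets) and the chosen one at -0.01, and that of Rpl7 at 0.35 (0.00803) with the chosen one at -0.04, opposite in sign. That of Rps24 was at -0.74 (0.00608) and the chosen one at -0.06, alike in sign. In PI mucosa at 14 against 3 days the second Rps24 probe set was at 0.51 (0.0237) and the chosen one at -0.06, and for the injury effect at 3 days minus that at 60 days it was at -0.91 (0.0475) and the chosen one at 0.13. The direction of these genes is uncertain where the probe sets differ in sign. For the 36 probe sets that match several ribosomal protein genes, 1 was called higher at 3 days, 0 at 14 days and 0 at 60 days, and their medians were 0.03, 0.12 and -0.08.

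**Figure D5:**
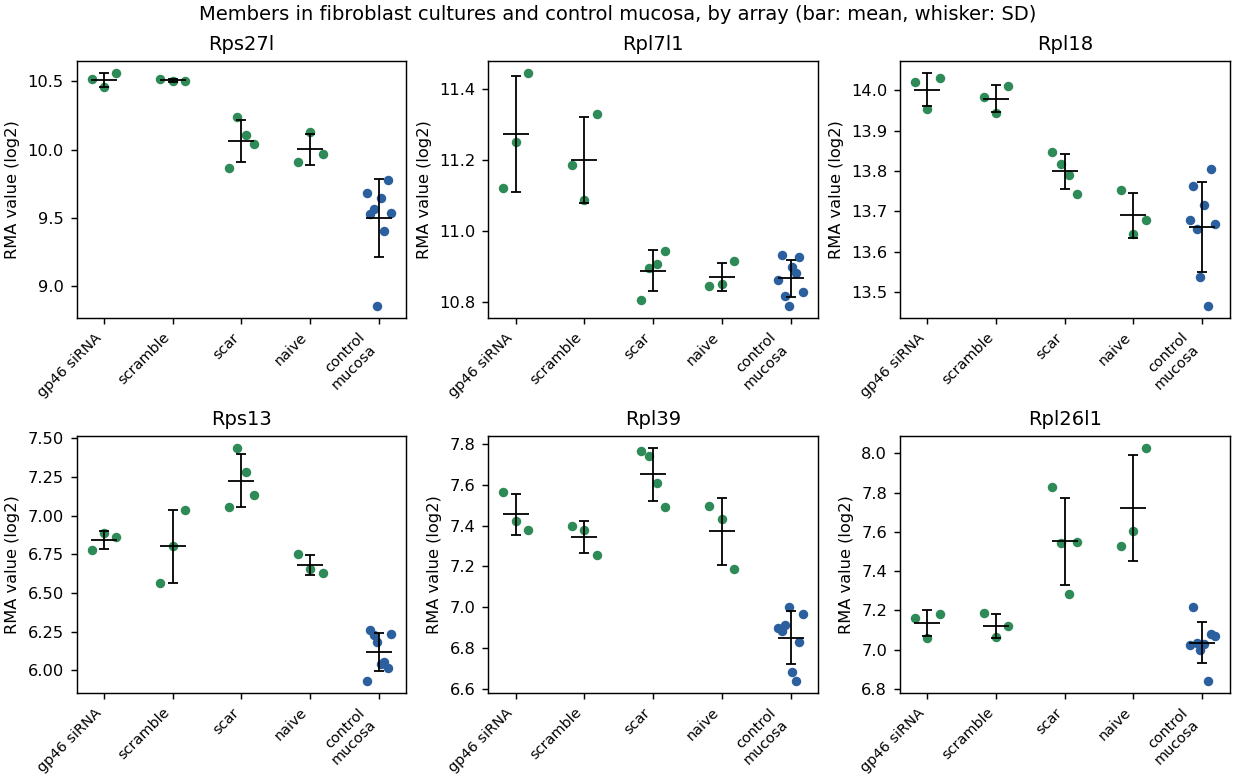
Log2 intensity of Rps27l, Rpl7l1, Rpl18, Rps13, Rpl39 and Rpl26l1 by array (points) in gp46 siRNA, scramble siRNA, untransfected scar and naive fibroblasts and in the 8 control mucosa arrays. Scramble cultures lie above scar cultures for Rps27l, Rpl7l1 and Rpl18 and below them for Rps13, Rpl39 and Rpl26l1, and the gp46 siRNA cultures overlap the scramble cultures for each gene. Bars are means and whiskers SD.

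Naive fibroblasts and uninjured control mucosa, the comparison with the most calls over all genes, differed in 71.6% of all genes but in 12 of 48 members, 8 higher and 4 lower, where 42.6% of all genes were higher and 29% lower. The members' median was 0.03 and that over all genes 0.14. Calls were more frequent among dim probe sets, with 5 of the 9 that averaged under 10 called higher and 1 lower, against 3 and 3 of the 39 others. Rpl28 read 7.18, 6.75 and 6.57 in naive fibroblasts, and its 8 control mucosa arrays lay between 5.04 and 5.51. It was higher by 1.52 (SE 0.12, limma adjusted p = 1.92e-12). Rpl26l1 (0.68), Rps13 (0.56), Rpl39 (0.51) and Rpl30 (0.47) came next. The stratified epithelium marker Krt4 read 5.67 ± 0.22 in the naive cultures (SD, n = 3). Rpl28 may thus not be above background in control mucosa, and 1.52 is a difference of measured intensities.

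Of the bright members Rpl27 (0.34), Rpl23a (0.27) and Rps15a (0.23) were higher, and Rpl35a (-0.27), Rpl7 (-0.21) and Rpl5 (-0.13) lower. Rpl3l was called lower, as above. With each array centred on the genes that are not members, 23 members were called, 22 higher and 1 lower, where 74.7% of all genes were called, and the median was 0.13. Rpl35a (limma adjusted p = 0.0667), Rpl7 (0.0502) and Rpl5 (0.493) lost their calls there. With single arrays left out Rpl23a was not called without control array 3 at 14 days, control array 1 at 60 days or any naive culture (limma adjusted p 0.0547 to 0.0775), and Rpl35a (0.0819) and Rpl5 (0.0771) not without naive culture 2. Whether small differences between cells and tissue are called thus depends on the reference set. Of the 68 ribosome assembly factors 53 were called higher and 1 lower (79.4% in all, median 0.49), and of 19 cytosolic tRNA synthetases 17 higher and 2 lower.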

How the data were processed

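The study's methods describe single-round amplification, hybridization to the arrays and robust multiarray averaging (RMA) with the R package affy; its version is not given in the sources used here. The deposited values are log2 intensities, normalized together over the 36 arrays by the authors, 1 value per probe set. From these, 57 control probe sets were set aside, and 31042 were kept. Symbols were updated through entrez_id (20758), accession (2) or kept (66), leaving 20826 probe sets with 1 symbol, 436 with several and 9780 with none. A gene was represented by its probe set of median mean intensity, giving 14217 genes with no filter on low values.

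Mucosa (23 arrays, 6 groups), fibroblasts (13 arrays, 4 groups) and all 36 arrays (10 groups, for naive fibroblasts against control mucosa) were fitted with limma 3.58.1 in R 4.3.3, with empirical Bayes moderation and Benjamini-Hochberg adjustment, in place of the study's empirical Bayes mixture model. The 95% intervals use limma's moderated standard error and degrees of freedom. Arrays carry no counts, and their number limits the precision. The fits were tested on simulated data. The members, lists and tests were chosen with earlier results of these data known. Genes named with values were, in each comparison, the 5 largest called rises and falls, members set by role, up to 3 called genes of each other list, and probe sets that disagreed in sign with the chosen one. Genes named outside that rule, such as Rps27l at 3 days, Rps15, Rpl21, Rpl4 and those called without the 3 low arrays, were chosen after their values were seen. So were the genes of the mTOR list other than Deptor.

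Replicate numbers were checked for pairing by the correlation of deviations from group means. It was 0.433, 0.176 and 0.472 for the 3 gp46 and scramble numbers. These cultures were therefore treated as paired, though the labels state no pairing. With the number as a block 0 members were called there, as without it. Elsewhere no pairing was assumed, although single correlations reached 0.31 (PI and control array 1 at 3 days). Alternatives were other probe-set rules, filters, array weights, repeated normalization, centring on other genes, a fold limit, fits to the compared groups alone, the block, and leaving out arrays. Promoters came from RefSeq (GRCr8), with 7 members not matched. Protein sequences and transcript lengths were not used here.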

Additional observations from a re-analysis of the deposited data

Results flagged for a closer look

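Single arrays set far from the rest of their group were looked for in groups of 4 to 10 arrays. The search covered 23 of the members and the median of all 48, in 4 groups. Not every member named above was in it, Rps15 and Rpl21 being among those left out. A gap that took up most of the group's range was found in 17 of 96 tests, where chance gives about 1 in 20. The members are read on the same arrays, so these 17 are not independent.

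Most of them were 2 arrays. PI array 5 at 3 days was the lowest of its group in the median level of the 48 members (13.43, against 13.68 to 13.78 in the other 4 arrays). It was also lowest in Rpl11 (13.71, against 13.99 to 14.05), Rpl13a (12.95, against 13.21 to 13.26), Rpl18 (13.45, against 13.82 to 13.89), Rpl22 (12.73, against 13.46 to 13.57) and Rpl23a (13.04, against 13.53 to 13.7). The same held for Rpl27 (13.24, against 13.69 to 13.83), Rpl35a (13.001, against 13.46 to 13.55) and Rpsa (13.22, against 13.54 to 13.59).

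PI array 4 at 60 days was lowest in Rps27l (8.16, against 9.58 to 9.94), the widest gap of the 17. It was lowest as well in Rpl22 (12.86, against 13.29 to 13.37), Rpl23a (13.02, against 13.46 to 13.58), Rpl27 (13.01, against 13.48 to 13.6), Rpl35a (13.2, against 13.44 to 13.49) and Rps6 (14.13, against 14.31 to 14.36). PI array 3 at 14 days was lowest in Rpl22 (13.13, against 13.29 to 13.35) and highest in Rplp0 (13.93, against 13.81 to 13.84).

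The injury effect on Rpl3l differed between times in a test of the difference itself, by -1.92 for 3 against 14 days (limma adjusted p = 0.0167) and -2.5 for 3 against 60 days (limma adjusted p = 0.00293). A control probe set for 5S rRNA, which no comparison above uses, read higher in transfected than in untransfected scar fibroblasts. It averaged 8.36 in scramble siRNA cultures (8.25 to 8.57) and 8.3 in gp46 siRNA cultures (8.29 to 8.31), against at most 7.9 in the 4 scar cultures. This difference was not tested.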

How the results depend on the processing

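Of the 26 called differences of single members, 446 of 504 alternative fits kept the direction and an adjusted p under 0.05. Another 58 kept the direction but not that p, and 0 turned it. This count did not apply the fold limit, so calls lost to that limit are among the 446. The count of members called at 3 days was 3 and became 1 without the 30% of genes of lowest mean, 15 (11 higher, 4 lower) with array weights, 9 without the 3 low arrays and 1 with a fold change of at least 1.5. With single arrays left out it ran from 1 (without control array 2) to 3. At 14 days array weights gave 1 in place of 0, and at 60 days all alternatives gave 0. For PI mucosa at 14 against 3 days the count of 2 became 4 with the mean of probe sets, 1 without the dimmest 30%, 15 (3 higher, 12 lower) with array weights, 14 without the low arrays, 1 with the fold limit and 4 with only the groups compared. The injury effect differed between 3 and 14 days for 1 member, and for 5 with array weights, 2 with centring on other genes, 2 without the low arrays and 0 to 2 with single arrays left out (0 without control array 1 or 3 at 3 days). Between 3 and 60 days it differed for 1, and for 4 with array weights, 3 without the low arrays and 1 to 2 with single arrays left out. The share of all genes called changed with the setting too, as given above for array weights, the low arrays and centring. Counts here and below are thus not by themselves results about the members.

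For scar against naive fibroblasts the count of 1 became 0 with the fold limit or with only the groups compared, and 0 to 1 with single cultures left out. For scramble against scar cultures the 6 became 0 with the fold limit, 3 with only the groups compared and 2 to 6 with single cultures left out (2 without scramble culture 1 or 3). For naive fibroblasts against control mucosa the 12 became 23 with centring on other genes, 9 of them shared, 3 with the fold limit and 10 to 14 with single arrays left out. The shift of the members in PI array 5 at 3 days, control array 3 at 14 days and PI array 4 at 60 days was -0.21, -0.14 and -0.11 after centring on other genes, and -0.16 in the control array over all probe sets of the members. A fold limit and fewer arrays lower counts by construction; otherwise the cause was not tested.

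With the replicate number as a block, 3 members were called at 3 days, 1 of them among the original 3, 3 at 14 against 3 days in PI mucosa, and 0 in each of the 14-day, 60-day, scar against naive and scramble against scar comparisons. The gp46 and scramble cultures were treated as paired by their correlations, not by the labels, and the block changed no call there. Elsewhere no pairing was assumed. In the mucosa correlations of equal numbers ran from -0.278 to 0.31.

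Most members read near the top of the scale, and how far intensity still followed RNA amount there was not tested. Control mucosa at 60 days has 2 arrays by the labels, which differ from the methods by 1 array in each 60-day group, and the array concerned was not determined. Each mucosal array pools rats, and each culture group has 3 or 4 arrays.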
